A study of Mus musculus with 6 samples.

Results

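The interferon-stimulated genes were followed in cultured mouse granulocyte-monocyte progenitors, as a list of 40 genes picked by name from the 23337 genes of a table of read counts. The cells came from C57BL6 bone marrow and carried ER-HOXA9, in which the homeobox factor HOXA9 is joined to an estrogen receptor, so that estrogen keeps it active and the progenitors immature. All 6 cultures were grown with stem cell factor and 0.5 µM beta-estradiol, which is the signal that keeps the fusion active, in all groups. One group was kept for 3 days with a combination of 5 µM cerulenin (a fatty acid synthase inhibitor), 5 µM mercaptopurine (a thiopurine antimetabolite) and 200 nM GSK-LSD1 (which blocks the histone demethylase LSD1). The vehicle group was kept for 3 days with DMSO, and the untreated group was taken at day 0. Each group had 2 libraries, described as biological replicates. The 3 agents were given only together, so what each of them did cannot be told apart. The labels do not say whether the cells are 1 clone.

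Interferons bind receptors at the cell surface, and the kinases attached to these receptors phosphorylate STAT proteins. Type I interferon drives the ISGF3 complex, which holds STAT2 and IRF9, to the interferon-stimulated response element (ISRE), while interferon gamma acts through the gamma-activated site (GAS). The genes switched on in this way sense foreign RNA, degrade it, block viral entry or release, and feed back on the pathway itself. Many of them also have a resting level of transcription in haematopoietic progenitors, without infection.

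Promoters of some of the members are shown here, chosen because each holds a match to a motif named below. RefSeq promoter windows on GRCm38.p6, from 250 bases before to 50 bases after each start, were at hand for 32 of the 40 genes, and the 8 without one are Oas2, Mx1, Mx2, Usp18, Dhx58, Parp9, Parp14 and Zbp1. Exact matches to 3 motifs were sought on both strands, and each stretch below holds the match or matches in capitals with 20 bases on either side, read 5′ to 3′ on the strand of the gene. The ISRE was spelled as GAAA, any 2 bases and GAAA. The GAS was spelled as TTC, any 3 bases and GAA. An ETS-IRF composite element, at which an ETS factor and an IRF bind side by side, was spelled as GGAA, any 2 bases and GAAA. Irf7, Oasl2 and Xaf1, called over 2-fold higher with the drugs than with vehicle, had a window and no match to any of the 3 motifs. Irf9, Ifitm1 and Oasl1 had none either. The first 3 stretches belong to genes that stayed close to 0 counts, and the next 5 to members with an ISRE match and enough counts to be tested. Of these, Ifit1 was low, with 2 to 17 counts in a library.
Isg15, chr4:156200855-156200916, minus strand, ISRE: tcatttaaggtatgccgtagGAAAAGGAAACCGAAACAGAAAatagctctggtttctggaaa
Ifit3, chr19:34583353-34583436, plus strand, ISRE: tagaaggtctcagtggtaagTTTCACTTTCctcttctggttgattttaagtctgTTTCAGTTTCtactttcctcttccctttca
Gbp2, chr3:142620584-142620633, plus strand, ISRE: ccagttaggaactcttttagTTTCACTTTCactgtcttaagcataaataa
Ifit1, chr19:34640765-34640833, plus strand, ISRE: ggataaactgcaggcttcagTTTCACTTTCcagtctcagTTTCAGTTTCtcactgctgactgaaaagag
Oas3, chr5:120777705-120777754, minus strand, ISRE: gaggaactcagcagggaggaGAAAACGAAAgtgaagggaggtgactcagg
Rsad2, chr12:26456543-26456592, minus strand, ISRE: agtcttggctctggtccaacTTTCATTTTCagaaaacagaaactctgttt
Gbp3, chr3:142559979-142560034, plus strand, ISRE: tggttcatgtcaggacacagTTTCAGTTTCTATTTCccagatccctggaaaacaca
Stat2, chr10:128270256-128270305, plus strand, ISRE: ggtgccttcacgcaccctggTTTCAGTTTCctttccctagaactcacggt
Irf1, chr11:53769904-53769952, plus strand, GAS: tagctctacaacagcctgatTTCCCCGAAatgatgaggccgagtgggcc
Sp100, chr1:85649928-85649977, plus strand, ETS-IRF composite: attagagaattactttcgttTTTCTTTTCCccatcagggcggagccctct

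An ISRE match was present in 16 of the 32 genes with a window (50%), against 3.99% of the 27025 genes of the RefSeq table. A GAS match was present in 13 of the 32 (40.6%), against 9.55% of all genes, and an ETS-IRF composite match in 4 (12.5%), against 3.16%. In Stat2 the ISRE match overlapped a composite match. Of the 16 genes with an ISRE match, 5 were called higher with the drugs than with vehicle, 1 lower, 7 were not called and 3 were too low to test, and of the 16 with a window and no match, 10 were called higher, 1 lower, 4 were not called and 1 was too low. The shares of all tested genes called in this comparison were 18.1% higher and 13.8% lower. Ifit1, with an ISRE match, and Oasl2, without one, passed a filter on low counts through the drug libraries alone. A match describes the letters only.

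Total counts ranged from 11305666 to 16948697 per library, of which the ribosomal RNA gene Rn45s took between 14.6% and 24.6%. Levels are CPM, the counts scaled to the library total after TMM scaling, and RPKM, the same per kilobase, where genes of different length are compared. Differences are log2 changes ± SE from 1 edgeR quasi-likelihood fit of all 6 libraries, with p adjusted by Benjamini-Hochberg over the 11283 genes that passed a filter on low counts, and a gene was called when its adjusted p was under 0.05. Of the 40 members, 32 passed the filter and 8 did not. In RNA of whole cultures, a change in the share of cells that express a gene and a change in the amount per cell cannot be told apart.

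The list spanned silent genes and well expressed ones. At 121 ± 1.44 RPKM with the drugs, 130 ± 12.2 with vehicle and 139 ± 9.74 at day 0 (SD, n = 2 each), Ifitm2, a membrane protein that hinders viral entry, had the highest level of the list in every group. Sp100, a component of PML nuclear bodies, came next with the drugs at 42.7 ± 2.30 RPKM, against 22.0 ± 0.965 with vehicle and 16.6 ± 0.693 at day 0. Ifitm3 was second in the other groups, at 25 RPKM with the drugs, 43.3 with vehicle and 57.7 at day 0. Ifitm1, Ifnar2, Bst2, Ifnar1, Samhd1, Eif2ak2 and Adar also stood above 10 RPKM in every group, which makes 10 members. At the other end, 16 of the 40 were under 1 RPKM with the drugs, 18 with vehicle and 17 at day 0. The median over the 40 genes was 2.48 RPKM with the drugs, 1.65 with vehicle and 1.85 at day 0, against 11, 10.7 and 10.8 RPKM over all tested genes in the same groups. Together the 40 genes summed to 825 and 793 CPM with the drugs, 687 and 684 with vehicle, and 716 and 679 at day 0.

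**Figure D1:**
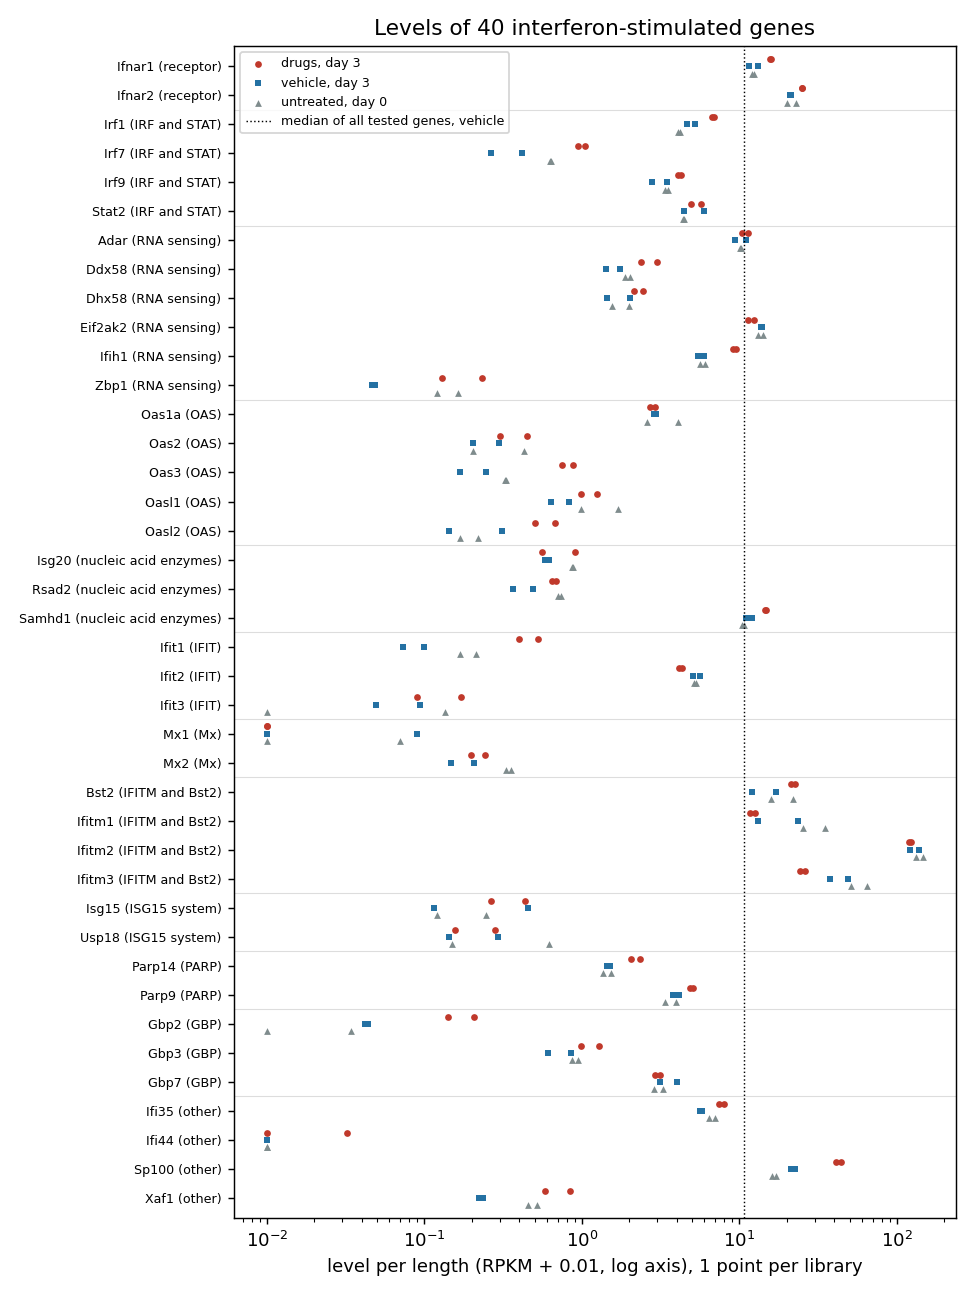
Level per length of the 40 genes, 1 point per library, with RPKM + 0.01 on a log axis, gene roles in brackets, and the median of all tested genes with vehicle as a dotted line. Most of the genes (31 of 40 with vehicle) lie left of that median of 10.7 RPKM, and Ifitm2 is the farthest right in every group.

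With the drugs, 16 of the 32 tested members were called higher than with vehicle and 2 lower, while 14 were not called. Over all tested genes, 18.1% were called higher and 13.8% lower in this comparison. The median log2 change of the 32 was 0.42, against 0.00 over all tested genes. Ifit1, Oas3, Xaf1, Irf7 and Oasl2, 5 of the 32, rose by more than 2-fold, against 5.57% of all tested genes, and none fell by as much, against 1.08%. The drug libraries stood above both vehicle libraries for 22 members, below both for 4 and overlapped them for 6, against 35.1% of all tested genes above and 33.7% below. Ifit1 and Oasl2 passed the filter through the drug libraries alone, and of the 30 without them 14 were called higher, 3 by over 2-fold, and 2 lower, with a median of 0.41. Over the 11018 genes that passed otherwise, 17.1% were called higher, 4.32% by over 2-fold, and 14.2% lower.

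**Figure D2:**
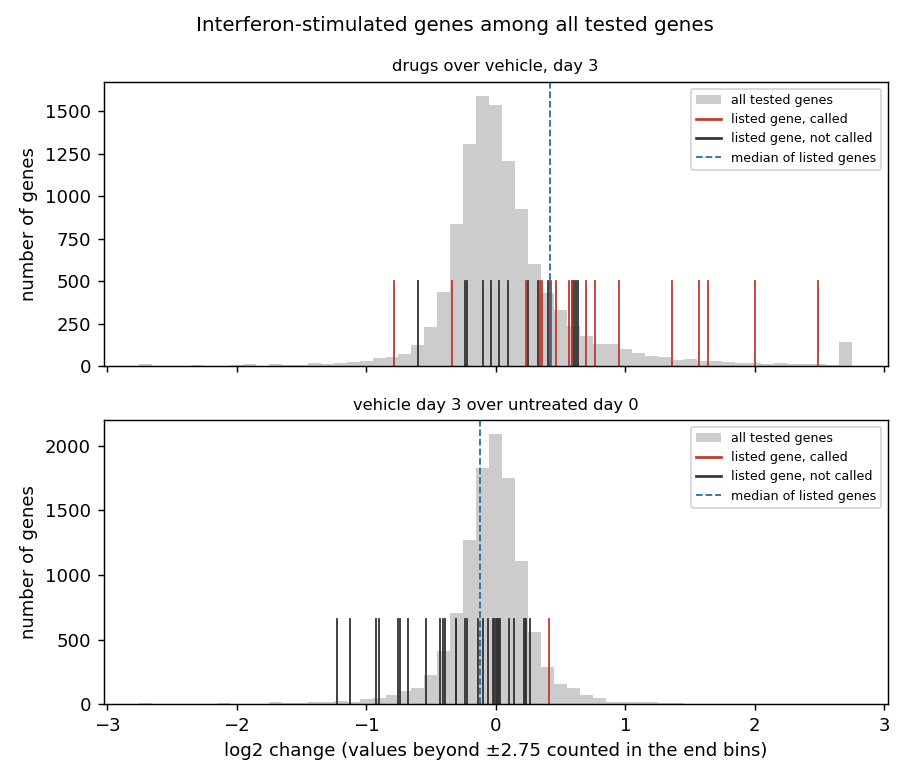
Log2 changes of the 32 tested genes (lines) over the histogram of all 11283 tested genes (grey, number of genes per bin), for drugs over vehicle above and vehicle over day 0 below, with the median of the 32 dashed. Called genes are red lines. The median sits at 0.42 in the upper panel and at -0.12 in the lower one.

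Both chains of the type I interferon receptor were called higher with the drugs, by a small margin. Ifnar1, the chain that carries the kinase TYK2, had 109 and 111 CPM with the drugs, 92.0 and 80.1 with vehicle, and 84.1 and 86.6 at day 0. Its log2 change over vehicle was 0.35 ± 0.0763 (adjusted p = 0.00346). Ifnar2, the high-affinity chain, had 78.9 and 79.4 CPM with the drugs, 67.6 and 66.9 with vehicle, and 72.4 and 64.0 at day 0. Its log2 change over vehicle was 0.24 ± 0.0759 (adjusted p = 0.0313). For both genes the drug libraries lay above all 4 others. Both lie in 1 cluster of chromosome 16 (mm10, chr16:91372783-91510522).

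The factors that carry the signal to the promoters were not all called. Stat2, which gives ISGF3 its activation domain, had 25.1 and 21.5 CPM with the drugs, 19.6 and 26.1 with vehicle, and 19.4 and 19.3 at day 0. The vehicle libraries enclosed the drug libraries, and the log2 change was 0.03 ± 0.133 (adjusted p = 0.900), or -0.01 with plain library totals in place of TMM. Irf9, the DNA-binding subunit of ISGF3, had 11.4 and 11 CPM with the drugs, 7.51 and 9.36 with vehicle, and 9.45 and 9.05 at day 0. Its log2 change over vehicle was 0.42 ± 0.146 (adjusted p = 0.0449), just inside the threshold.

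Both interferon regulatory factors of the list that act downstream were called higher with the drugs. Irf7, which amplifies interferon alpha transcription and is itself induced by it, had 1.92 and 1.74 CPM with the drugs, 0.474 and 0.752 with vehicle, and 1.14 and 1.16 at day 0. The log2 change over vehicle was 1.57 ± 0.369 (adjusted p = 0.00605), on 24 and 27 counts with the drugs and 6 and 9 with vehicle. Irf1, an activator whose promoter carries the GAS match printed above, had 23.1 and 22.6 CPM with the drugs, 17.5 and 15.6 with vehicle, and 13.6 and 14 at day 0. The 3 groups of Irf1 did not overlap, and its log2 change over vehicle was 0.46 ± 0.108 (adjusted p = 0.00581).

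Among the RNA sensors and double-stranded RNA binding proteins, 2 of 5 tested members were called higher with the drugs. Over all tested genes 18.1% were called higher. Ifih1 encodes MDA5, a sensor of long double-stranded RNA. It had 52.4 and 50.1 CPM with the drugs, 33.0 and 30.1 with vehicle, and 30.9 and 33.1 at day 0 (log2 change over vehicle 0.70 ± 0.0860, adjusted p = 4.76e-05). Ddx58 encodes RIG-I, which detects RNA with a triphosphate end. It had 14.8 and 11.7 CPM with the drugs, 6.95 and 8.52 with vehicle, and 9.87 and 9.22 at day 0 (0.77 ± 0.161, adjusted p = 0.00292). For both, the drug libraries were above all others. Dhx58 (LGP2), which tunes both sensors, had 5.84 and 5.16 CPM with the drugs against 3.48 and 4.85 with vehicle, and was not called (0.40 ± 0.215, adjusted p = 0.177).

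Eif2ak2 and Adar, which act on double-stranded RNA or in answer to it, were not called. Eif2ak2 encodes PKR, the kinase that stops translation when it binds double-stranded RNA. It had 53.5 and 48.7 CPM with the drugs, 59.7 and 59.3 with vehicle, and 56.6 and 61.4 at day 0. The drug libraries were the lowest of the 6, and the log2 change over vehicle of -0.22 ± 0.0801 missed the threshold (adjusted p = 0.0504). In 8 of 14 alternative settings of the fit it passed. Adar, which edits double-stranded RNA, had 68.6 and 62.9 CPM with the drugs against 66.1 and 56.8 with vehicle (0.09 ± 0.0853, adjusted p = 0.435).

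Of the 5 oligoadenylate synthetase and synthetase-like genes, 2 were called higher with the drugs, against 18.1% of all tested genes. The synthetases make the oligoadenylates that activate RNase L. Oas3 had 4.08 and 3.48 CPM with the drugs, 1.11 and 0.752 with vehicle, and 1.49 and 1.5 at day 0. Its log2 change over vehicle was 2.00 ± 0.292 (adjusted p = 1.99e-04), and the drug libraries held 51 and 54 counts against 14 and 9. Oasl2 had 2.08 and 1.55 CPM with the drugs, 0.948 and 0.418 with vehicle, and 0.658 and 0.498 at day 0 (1.36 ± 0.407, adjusted p = 0.0217). Since Oasl2 passed the filter through the drug libraries alone, Oas3 is the only call here without that limit.

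The neighbours of these genes gave other values. Oas2, next to Oas3 and Oas1a on chromosome 5 (chr5:120730333-120907525), had 1.12 and 1.68 CPM with the drugs against 1.11 and 0.752 with vehicle (0.61 ± 0.432, adjusted p = 0.312). Oas1a had 5.12 and 5.48 CPM with the drugs against 5.37 and 5.52 with vehicle (-0.03 ± 0.217, adjusted p = 0.924). Oasl1, which in the mouse is known to hold back Irf7 translation, had 2.64 and 2.06 CPM with the drugs, 1.74 and 1.34 with vehicle, and 3.59 and 2.08 at day 0 (0.59 ± 0.341 over vehicle, adjusted p = 0.210). The Oas, Ifit, Ifitm and Gbp genes are families of similar sequence, and since the treatment of reads that match several genes is not stated in the sources at hand, the split of counts within a family is uncertain.

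Ifit1 and Ifit2 moved in opposite directions with the drugs and lie in 1 cluster with Ifit3 (chr19:34550694-34650009). Ifit1, which binds foreign RNA by its cap end, had 17 and 16 counts with the drugs, 3 and 2 with vehicle, and 9 and 5 at day 0. Its level was 1.36 and 1.03 CPM with the drugs, 0.237 and 0.167 with vehicle, and 0.538 and 0.415 at day 0. Its log2 change over vehicle was 2.49 ± 0.528 (adjusted p = 0.00318), the largest of the list. Ifit1 passed the filter through the drug libraries alone, so it was tested only because it was high there. Ifit2, a related RNA-binding protein, had 16.4 and 17 CPM with the drugs, 22.1 and 20.1 with vehicle, and 20.8 and 20.4 at day 0. It fell against vehicle (-0.33 ± 0.107, adjusted p = 0.0299), and its drug libraries were the lowest of the 6.

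Of the 4 membrane restriction factors, 1 was called lower and 1 higher with the drugs. Over all tested genes 13.8% were called lower and 18.1% higher, and for 4 genes the counts are near those shares. Ifitm3, which blocks fusion of viruses in endosomes, had 15.7 and 16.8 CPM with the drugs, 24.4 and 31.7 with vehicle, and 41.9 and 33.0 at day 0. The 3 groups did not overlap, and the gene was called lower with the drugs than with vehicle (-0.78 ± 0.147, adjusted p = 0.00136). Ifitm1, which acts at the cell surface, had 10.6 and 9.74 CPM with the drugs, 11 and 19.8 with vehicle, and 29.2 and 21.3 at day 0. The vehicle libraries lay far apart, and the log2 change of -0.60 ± 0.237 was not called (adjusted p = 0.0729). It was called in 6 of 14 alternative settings, among them without vehicle replicate 1, where it was -0.97. Ifitm2 had 76.6 and 75.3 CPM with the drugs, 76.1 and 86.9 with vehicle, and 91.4 and 82.7 at day 0 (-0.10 ± 0.0814 over vehicle, adjusted p = 0.375). All 3 lie within 1 cluster on chromosome 7 (chr7:140954839-141010744).

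Bst2 (tetherin), which holds budding virus particles on the cell, was called higher. It had 16.3 and 17.2 CPM with the drugs, 9.24 and 13.1 with vehicle, and 16.7 and 12.1 at day 0 (0.59 ± 0.177 over vehicle, adjusted p = 0.0233). Its drug libraries stood above both vehicle libraries and overlapped the untreated ones.

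**Figure D3:**
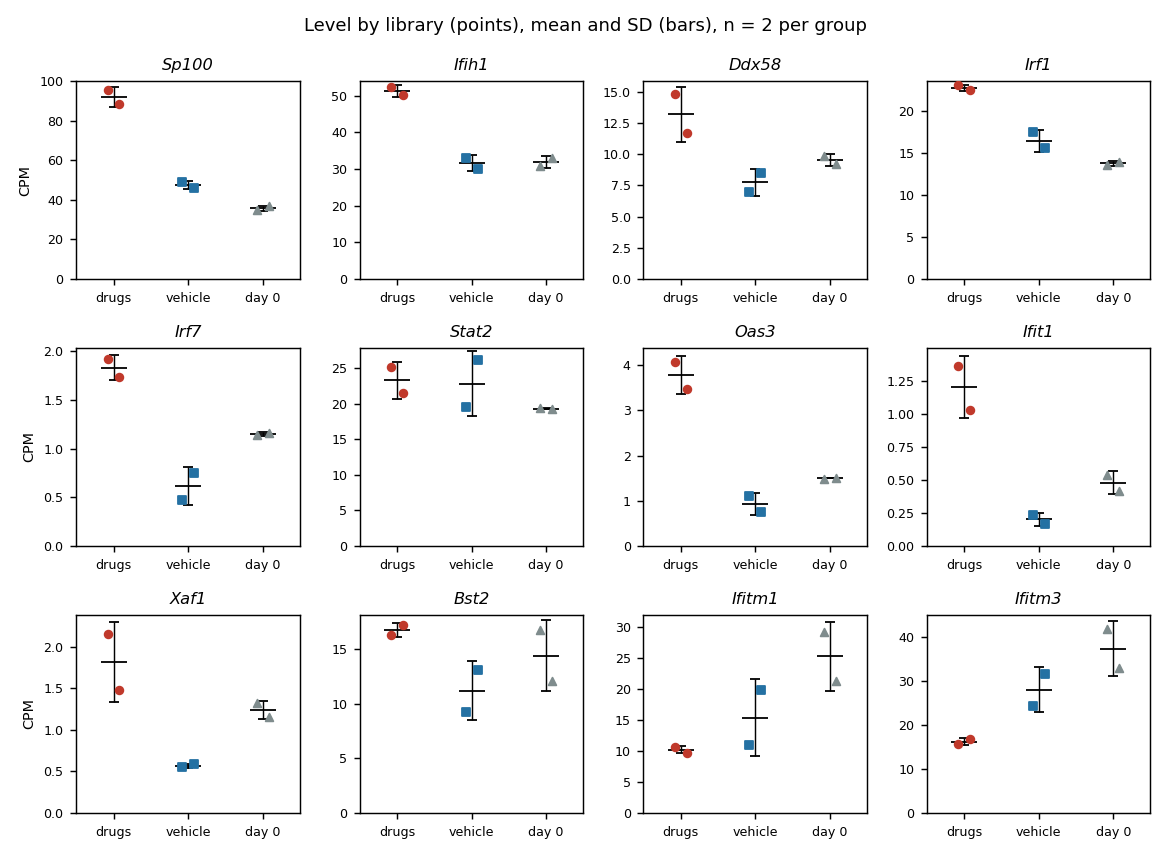
CPM of 12 members in each library (points), with the group mean and SD (n = 2 per group), for drugs, vehicle and day 0 from left to right. Sp100, Ifih1, Ddx58, Irf1, Irf7, Oas3, Ifit1 and Xaf1 have both drug points above all others, Stat2 and Bst2 overlap another group, and Ifitm1 and Ifitm3 have their lowest points with the drugs.

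Sp100 had the smallest p of the list. This gene (chr1:85650050-85709448), whose promoter holds the ETS-IRF composite match above, had 95.6 and 88.6 CPM with the drugs, 48.9 and 46.0 with vehicle, and 34.7 and 36.8 at day 0. The 3 groups were apart, and the log2 change over vehicle was 0.96 ± 0.0773 (adjusted p = 1.08e-06). Xaf1, a pro-apoptotic partner of the apoptosis inhibitor XIAP, had 2.16 and 1.48 CPM with the drugs, 0.553 and 0.585 with vehicle, and 1.32 and 1.16 at day 0. It rose over vehicle by 1.64 ± 0.390 (adjusted p = 0.00640), on 27 and 23 counts against 7 and 7. Ifi35, a partner of the interferon-induced protein Nmi, had 10.9 and 10.1 CPM with the drugs, 7.90 and 7.60 with vehicle, and 8.67 and 9.55 at day 0 (0.43 ± 0.141, adjusted p = 0.0344).

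Parp14 and Parp9, ADP-ribosyltransferases of the macro-domain type that lie close together on chromosome 16, gave similar values. Parp14 had 16.9 and 14.8 CPM with the drugs, 10.8 and 10.4 with vehicle, and 11 and 9.80 at day 0, and rose by 0.57 ± 0.130 (adjusted p = 0.00515). Parp9 had 18.1 and 17.2 CPM with the drugs, 14.6 and 13.5 with vehicle, and 14.1 and 11.9 at day 0. Its drug libraries were the highest, but the log2 change of 0.33 ± 0.123 missed the threshold (adjusted p = 0.0607). Exons of Parp9 overlap exons of Dtx3l on the opposite strand, and those of Adar overlap exons of Chrnb2. Summed over pairs of listed exon intervals, which can count a base more than once, the overlaps were 334 and 24 bases. Since the strand setting of the counts is not given, reads there cannot be assigned with certainty.

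The enzymes that act on nucleotides and nucleic acids were mostly not called. Samhd1, which removes deoxynucleotides and is one of the better expressed members, had 59.5 and 58.4 CPM with the drugs, 48.4 and 44.3 with vehicle, and 42.9 and 41.3 at day 0 (0.34 ± 0.0781 over vehicle, adjusted p = 0.00480). Rsad2 (viperin), which makes a chain-terminating nucleotide, had 2.56 and 2.39 CPM with the drugs, 1.82 and 1.34 with vehicle, and 2.63 and 2.74 at day 0. The drug libraries stood above vehicle and below day 0, and the change over vehicle of 0.64 ± 0.275 was not called (adjusted p = 0.0976). Isg20, an RNA exonuclease, had 1.04 and 0.645 CPM with the drugs against 0.711 and 0.669 with vehicle (0.25 ± 0.435, adjusted p = 0.710).

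Neither of the 2 tested guanylate-binding proteins, GTPases that coat intracellular pathogens, was called. Gbp3 had 3.36 and 2.58 CPM with the drugs against 2.21 and 1.59 with vehicle (0.62 ± 0.272, adjusted p = 0.102). Gbp7 had 16.1 and 17.4 CPM with the drugs against 22.3 and 17.3 with vehicle (-0.24 ± 0.135, adjusted p = 0.199).

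**Figure D4:**
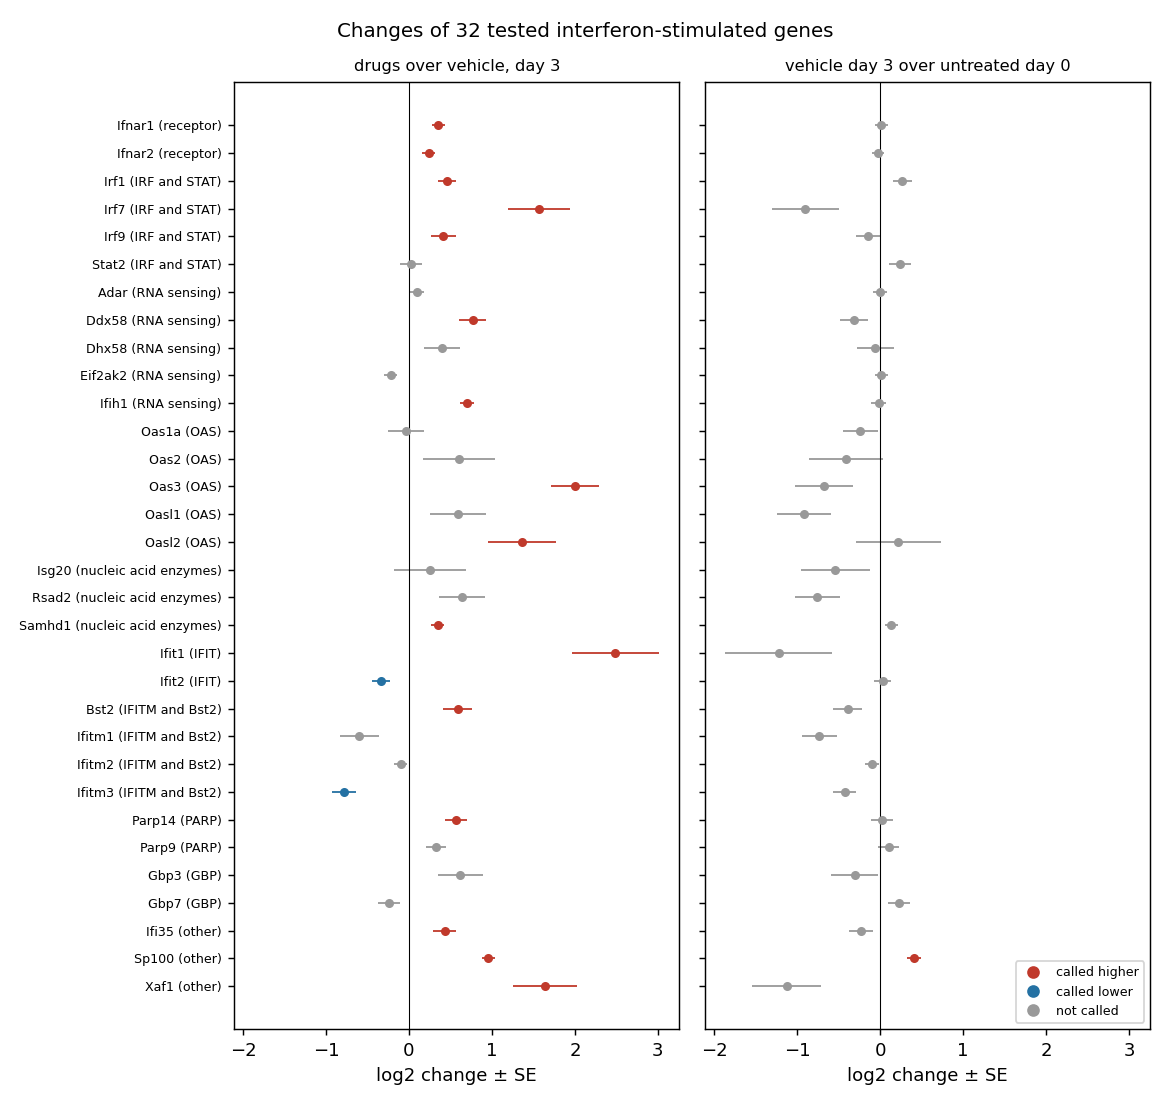
Log2 change ± SE of the 32 tested genes, drugs over vehicle on the left and vehicle over day 0 on the right, with genes called higher in red, lower in blue and not called in grey. On the left 16 are red and Ifit2 and Ifitm3 blue, and on the right Sp100 alone is coloured.

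The calls differed in how far they depended on single libraries. Ddx58, Ifih1, Ifit1, Ifitm3, Ifnar1, Oas3 and Sp100 kept their call in all 14 alternative settings of the fit. Among these, Ifit1 had passed the filter through the drug libraries alone. Without drug replicate 1, only drug replicate 2 was left in its group. The calls of Irf1, Xaf1, Ifi35, Irf9, Parp14, Ifnar2, Ifit2, Samhd1, Oasl2 and Bst2 were then lost. Without vehicle replicate 1, those of Xaf1, Ifi35, Irf9, Ifnar2, Ifit2, Irf7 and Bst2 were lost. In both of these fits fewer of all tested genes were called too, higher as well as lower. The calls of Ifi35, Irf9, Ifnar2, Ifit2, Oasl2 and Irf7 were also lost with DESeq2, and those of Ifi35, Irf9, Ifnar2 and Bst2 with library totals in place of TMM. The median absolute log2 difference between replicates was 0.115 for the tested members with the drugs, 0.253 with vehicle and 0.129 at day 0, against 0.078, 0.125 and 0.134 over all tested genes in the same groups.

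Several of the best known interferon-stimulated genes were close to silent in every group. The 8 members that did not pass the filter summed to 60 counts in the drug libraries, 34 with vehicle and 63 at day 0, and none had more than 18 counts in any library. Isg15, the ubiquitin-like modifier, had 4 and 3 counts with the drugs, 1 and 4 with vehicle, and 3 and 1 at day 0. Usp18, which removes ISG15 and blocks the receptor, had 6 and 4 counts with the drugs, 3 and 6 with vehicle, and 18 and 3 at day 0. Its untreated libraries lay far apart, at 1.08 and 0.249 CPM, and the lowest level was 0.237 CPM in vehicle replicate 1.

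Ifit3 had 2 and 5 counts with the drugs, 1 and 2 with vehicle, and 0 and 3 at day 0. Mx1, an antiviral GTPase, had 0 and 0 counts with the drugs, 3 and 0 with vehicle, and 3 and 0 at day 0. Its relative Mx2 had 7 and 7 with the drugs, 6 and 4 with vehicle, and 13 and 10 at day 0. Ifi44 had 1 count in all, in a drug library. These genes were too low to be tested at this depth.

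Zbp1, a sensor of Z-form nucleic acids that triggers necroptosis, had 6 and 4 counts with the drugs, 1 and 1 with vehicle, and 4 and 4 at day 0. The ratio of drugs to vehicle was 4.40, with an exact 95% interval of 0.937 to 41.3 that covers counting error only. Gbp2 had 6 and 5 counts with the drugs, 1 and 1 with vehicle, and 1 and 0 at day 0, and its ratio of drugs to vehicle was 4.84 (1.06 to 44.9). Both drug libraries of these 2 genes lay above both vehicle libraries, but at these counts the genes were not tested across libraries.

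In 3 days with vehicle, against day 0, 1 member of the list was called. Of the 32 tested members 1 was called higher (Sp100) and 0 lower, against 3.75% and 3.99% of all tested genes, and the median log2 change was -0.12 against -0.02 over all tested genes. With plain library totals in place of TMM, log2 changes of all genes moved up by 0.12 at the median, the median of the members stood at 0.00, and 89.0% of the calls over all genes were higher in place of 48.5%. DESeq2 also called 1 higher and 0 lower. At an unadjusted p under 0.05 there were 9 members (28.1%, against 25.2% of all tested genes), of which Sp100 and Irf1 were higher with vehicle and the others lower. The vehicle libraries stood above both untreated libraries for 4 members, below both for 12 and overlapped them for 16, against 23.9% of all tested genes above and 26.9% below.

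Sp100 rose by 0.41 ± 0.0826 with vehicle over day 0 (adjusted p = 0.00967). No member was called with a change over 2-fold, against 0.355% of all tested genes higher and 0.815% lower. The call of Sp100 was lost without vehicle replicate 1 and without untreated replicate 1. Of the others, Ifit1 had a log2 change of -1.22 ± 0.640 (adjusted p = 0.253), Xaf1 of -1.12 ± 0.418 (adjusted p = 0.121), Oasl1 of -0.92 ± 0.324 (adjusted p = 0.102), Irf7 of -0.90 ± 0.405 (adjusted p = 0.186) and Rsad2 of -0.76 ± 0.270 (adjusted p = 0.106). These estimates are large and rest on few counts, between 2 and 60 in a library, and none of the 5 was called. Ifitm1 (-0.73 ± 0.211, adjusted p = 0.0515) and Ifitm3 (-0.43 ± 0.133, adjusted p = 0.0710) came closest to the threshold below 0. The untreated libraries differed from each other for some of these genes, as in Oasl1 (3.59 and 2.08 CPM) and Oas1a (7.65 and 4.90 CPM).

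Set against day 0, cells with the drugs had 12 members called higher and 3 lower, against 22.7% and 21.2% of all tested genes. The median log2 change was 0.27, against -0.01 over all tested genes. Of the calls over all genes, 51.7% were higher, and 70.4% with library totals in place of TMM, where 12 members were higher and 2 lower. This comparison uses the same drug libraries as the one with vehicle, so the 2 are not independent. Sp100 had a log2 change over day 0 of 1.37 ± 0.0786 (adjusted p = 3.50e-08), Oasl2 of 1.59 ± 0.404 (adjusted p = 0.00688), Oas3 of 1.33 ± 0.254 (adjusted p = 0.00112) and Ifit1 of 1.26 ± 0.414 (adjusted p = 0.0256). These 4 were over 2-fold higher and Ifitm1 and Ifitm3 over 2-fold lower, against 6.03% and 2.09% of all tested genes. Without Ifit1 and Oasl2, which passed the filter through the drug libraries alone, 10 members were called higher and 2 of them by over 2-fold, against 21.8% and 4.71% of all genes that passed otherwise. The drug libraries lay above both untreated libraries for 20 members, below both for 6 and overlapped them for 6, against 37.2% of all tested genes above and 36.1% below. Irf1, Ifih1, Parp14, Samhd1, Ddx58, Parp9, Ifnar1 and Ifnar2 were called higher by 0.73 or less. Fewer members were called higher without drug replicate 1, and fewer of all tested genes were as well.

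The 3 members called lower against day 0 were Ifitm1 (-1.33 ± 0.219, adjusted p = 3.87e-04), Ifitm3 (-1.21 ± 0.140, adjusted p = 2.25e-05) and Ifit2 (-0.30 ± 0.105, adjusted p = 0.0338). More members were called lower without untreated replicate 2 and without vehicle replicate 2, and more of all tested genes were as well. Of the 16 members called higher over vehicle, 5 were not called over day 0, namely Irf7 (0.66 ± 0.308, adjusted p = 0.0972), Xaf1 (0.52 ± 0.314, adjusted p = 0.201), Irf9 (0.28 ± 0.140, adjusted p = 0.127), Ifi35 (0.20 ± 0.135, adjusted p = 0.237) and Bst2 (0.19 ± 0.166, adjusted p = 0.368). Rsad2 was at -0.12 ± 0.239 over day 0 (adjusted p = 0.711).

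The ligands of the pathway were next to absent. Of 21 interferon genes of types I, II and III, 16 had 0 counts in all libraries, and the rest summed to 12 counts, at most 2 in any library. Ifnb1, the interferon beta gene, had 0 counts in all 6 libraries. For genes at 0, a floor of 3 counts in a single library is at most 0.251 CPM, and the limit over the 6 libraries together is lower.

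The other parts of the pathway were counted from lists of 149 genes, of which 146 were found in the table. Of 10 tested receptor chains, kinases and STATs outside the members, 5 were called higher with the drugs than with vehicle and 1 lower, with a median log2 change of 0.19. For this and the lists that follow, the shares over all tested genes are the 18.1% higher and 13.8% lower given above. The largest was Ifngr2, the signalling chain of the interferon gamma receptor, at 56.4 and 55.8 CPM with the drugs, 19.8 and 21.1 with vehicle, and 18.2 and 17.5 at day 0 (1.46 ± 0.0874, adjusted p = 6.10e-08). Stat3 had 123 and 124 CPM with the drugs against 86.3 and 85.0 with vehicle (0.53 ± 0.0676, adjusted p = 6.37e-05). Among 10 tested feedback inhibitors and ISG15-pathway enzymes, Uba7 was the single one called, and it was higher. Uba7, the enzyme that activates ISG15 for conjugation, had 32.7 and 29.7 CPM with the drugs, 15.4 and 14.5 with vehicle, and 17.6 and 15.8 at day 0 (1.06 ± 0.109, adjusted p = 9.53e-06).

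Of 19 tested nucleic acid sensors and adaptors, 8 were called higher and the other 11 were not called, with a median log2 change of 0.14. Tlr7, Tlr8 and Tlr9 passed the filter through the drug libraries alone, and of the 16 without them 5 were called higher, with a median of 0.07. Without such genes, 17.1% of all tested genes were called higher. Tlr8, an endosomal receptor of the Toll family, had 85 and 105 counts with the drugs and 0 in all 4 other libraries, so it was at least 55.7-fold higher than with vehicle, taking a floor of 3 counts over the vehicle group. Tlr7, its neighbour in the family and a receptor for single-stranded RNA, had 15 and 19 counts with the drugs against 1 and 1 with vehicle (ratio 15, exact 95% interval 3.83 to 128). Unc93b1, the chaperone that carries these receptors to endosomes, had 179 and 198 CPM with the drugs, 56.3 and 60.5 with vehicle, and 61.3 and 53.5 at day 0 (1.69 ± 0.0841, adjusted p = 1.07e-08).

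Among 6 tested interferon regulatory factors and cofactors outside the members, Irf8 was the only one called against vehicle, at 28.3 and 32.6 CPM with the drugs against 6.24 and 6.35. Of 32 tested further genes induced by type I interferon, 19 were called higher (59.4%, against 18.1% of all tested genes) and 2 lower (6.25%, against 13.8%), with a median of 0.40. Among them Slfn5, of the schlafen family, had 13.4 and 12.4 CPM with the drugs, 4.66 and 4.01 with vehicle, and 7.24 and 6.98 at day 0 (1.57 ± 0.155, adjusted p = 6.61e-06). Epsti1 had 15.9 and 14.9 CPM with the drugs, 7.19 and 7.44 with vehicle, and 7.12 and 5.65 at day 0 (1.07 ± 0.144, adjusted p = 9.75e-05). Shisa5 had 39.9 and 41.7 CPM with the drugs, 22.4 and 21.2 with vehicle, and 28.3 and 28.0 at day 0 (0.90 ± 0.0891, adjusted p = 6.61e-06).

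Genes linked mainly to interferon gamma gave other counts. Of 18 tested, 1 was called higher with the drugs than with vehicle (Irgm2, 0.82 ± 0.239, adjusted p = 0.0194) and 1 lower, each 5.56% of the list, against 18.1% and 13.8% of all tested genes, with a median of 0.05. The lower one was Nlrc5, the activator of MHC class I genes, at 72.4 and 74.8 CPM with the drugs, 114 and 114 with vehicle, and 121 and 117 at day 0 (-0.63 ± 0.0669, adjusted p = 1.28e-05). In vehicle over day 0, 1 of the 18 was called higher and 4 lower, against 3.75% and 3.99% of all tested genes, with a median of -0.27 against -0.02 over all tested genes. Whether this list differs from the type I list was not tested.

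Marker genes of other blood cells were summed in the same libraries. The progenitor list (Kit, Cd34, Mpo, Elane and others) summed to 11520 and 12100 CPM with the drugs, 9493 and 9778 with vehicle, and 8483 and 8817 at day 0, with all 8 genes detected. The monocyte and macrophage list of 10 genes summed to 903 and 967 CPM with the drugs, 578 and 537 with vehicle, and 838 and 872 at day 0, with C1qa, C1qc and Mertk at 0 throughout. The conventional dendritic cell list of 8 genes stood at 522 and 539 CPM with the drugs, 287 and 287 with vehicle, and 219 and 218 at day 0, with Cd209a and Batf3 at 0. Nearly all of that sum was Flt3, a receptor that progenitors also carry, at 518 and 535 CPM with the drugs, 282 and 283 with vehicle, and 211 and 211 at day 0, while Itgax, the only other one tested, was not called over vehicle (-0.42 ± 0.233, adjusted p = 0.193). Plasmacytoid dendritic cells are a main source of interferon alpha. Their 8 markers summed to 218 and 214 CPM with the drugs, 204 and 185 with vehicle, and 211 and 227 at day 0. Ccr9 and Ly6d were at 0. Most of this sum was Runx2, at 174 and 170 CPM with the drugs, 176 and 161 with vehicle, and 175 and 190 at day 0. Only 3 of the 8 were tested. Over vehicle, Runx2 was not called and Tcf4 was called higher (0.97 ± 0.142, adjusted p = 2.10e-04). Cox6a2 was called lower, both over vehicle (-0.95 ± 0.305, adjusted p = 0.0309) and over day 0 (-2.41 ± 0.252, adjusted p = 8.7e-06). The mast cell and basophil list of 6 genes summed to 1301 and 1213 CPM with the drugs, 558 and 542 with vehicle, and 1154 and 969 at day 0, with Fcer1a at 0. Most of the mast cell sum was Cpa3, at 1190 and 1100 CPM with the drugs, 469 and 451 with vehicle, and 1060 and 871 at day 0. Of 7 tested monocyte and macrophage genes, 6 were called higher with the drugs than with vehicle and 1 lower. Of the 8 progenitor genes, 2 were called higher and 2 lower. The progenitor, monocyte, conventional and plasmacytoid dendritic, mast cell and neutrophil sums were all higher with the drugs than with vehicle. Several of these sums were mostly 1 gene, and markers within the lists went both ways. The part of these cell types in the result was not tested. The 6 B cell markers summed to 49.6 and 48.1 CPM with the drugs, 92.0 and 78.9 with vehicle, and 74.2 and 81.8 at day 0. The 7 erythroid and megakaryocyte markers found summed to 17.5 and 13.4 CPM with the drugs, 13.7 and 17.7 with vehicle, and 41.1 and 30.5 at day 0. The 8 neutrophil markers summed to 7.61 and 7.87 CPM with the drugs, 4.11 and 2.93 with vehicle, and 1.38 and 1.99 at day 0, with Camp and Retnlg at 0. Among them Mmp9 had 70 and 74 counts with the drugs against 2 and 1 with vehicle (ratio 42.2, exact 95% interval 14.2 to 207). Mmp9 passed the filter through the drug libraries alone. Without it 2 neutrophil markers were tested, S100a8 and Cxcr2, and 0 were called over vehicle. Of the 7 T and NK cell markers, 5 were at 0.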

How the data were processed

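Polyadenylated RNA of 6 libraries was analysed. The deposited table holds whole-number counts of reads per gene, made by the authors and not normalised, and a gene length in base pairs that was used for RPKM. The submitters' processing notes name STAR 2.7.0f, deepTools 3.0.2 and the mm10 build, and per the labels the table is called featurecount. The strand setting, the annotation release and the rule for multi-mapping reads are not given in the sources at hand. Gene positions are those of the deposited table.

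A filter on low counts (filterByExpr, smallest count 10) was followed by TMM scaling and 1 fit of all 3 groups with edgeR 4.0.16 (R 4.3.3). It had 3 residual degrees of freedom, and the common biological variation coefficient was 0.0592. Tests were quasi-likelihood F tests, two-sided, with Benjamini-Hochberg adjustment over 11283 genes, and log2 changes carry edgeR's default prior count. The SE was derived from the F statistic. The code was tested on simulated data. RPKM, intervals and floors cover counting error only, and reads carry no molecular identifiers. A floor of 3 counts was used for genes at 0. The labels call the samples biological replicates and do not say that equal replicate numbers mark shared cultures. Deviations of same-numbered libraries correlated at 0.0807 (drugs and vehicle), -0.199 (vehicle and day 0) and -0.0604 (drugs and day 0), so the model has no replicate term.

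The 40 members and the pathway and marker lists were chosen with earlier results of these data known. Values per library are given for members called over vehicle with a log2 change of at least 0.5 either way, for members near the threshold and for the signalling members, and other members were added so that all 40 are accounted for. Each pathway list is shown by up to 4 called genes, those with the smallest p and the largest change. Of the 149 pathway genes 13 were matched through RefSeq synonyms. Alternatives were DESeq2 1.42.0, other scalings, no filter, fits of 2 groups, replicate blocks and leaving out each library.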

Additional observations from a re-analysis of the deposited data

How the results depend on the processing

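Of the 18 members called with the drugs over vehicle, 18 were kept with RLE scaling, without the filter and in a fit of the 2 groups alone, 17 with Rn45s removed, 14 with library totals, 13 with a replicate block and 12 with DESeq2, while 8 to 18 were kept when single libraries were left out. The causes were not tested. Called higher were 7 to 17 members and lower 1 to 4 over the fits that left out a library. Lower members numbered 1 with DESeq2 and with the replicate block, and 4 without the filter, in the fit of 2 groups and with the block in which untreated numbers were crossed, which was added after the data were seen. The block cost the calls of Ifi35, Irf9, Ifnar2, Ifit2 and Bst2, but same-numbered libraries share only a number.

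Over all genes, calls with the drugs over vehicle ranged from 1251 to 2291 higher and 582 to 1900 lower without single libraries. In vehicle over day 0, 423 genes were called higher and 450 lower, against 255 and 236 with DESeq2, 1742 and 216 with library totals, 821 and 843 without the filter, 269 and 258 in the fit of 2 groups, 222 and 261 with the replicate block, 1097 and 1283 with the crossed block, and 155 to 850 and 196 to 1161 without single libraries. Members called there were 2 higher with library totals, 4 lower without the filter and with the crossed block, and 0 to 1 higher and 0 to 4 lower without single libraries. For drugs over day 0, library totals gave 1322 genes lower in place of 2394, and leaving out libraries gave 1667 to 2632 higher and 1205 to 2625 lower, with 7 to 12 members higher and 2 to 6 lower. The fit of 2 groups and the crossed block each gave 5 lower members.

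Estimates that changed sign belonged to genes that were not called. Stat2 with the drugs over vehicle stood at -0.01 with library totals, -0.09 without drug replicate 1 and -0.17 without vehicle replicate 1, within a range of -0.17 to 0.23 without single libraries. Isg20 stood at -0.10 (range to 0.58) and Oas1a at 0.01 without drug replicate 1, Adar at -0.03 (range to 0.21) without vehicle replicate 2, and Oas2 in vehicle over day 0 at 0.32 (range from -0.79) without untreated replicate 1. Depth limits the 8 members that were not tested, whose highest count was 18.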
